A study of Mus musculus with 10 samples.

Results

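The genes described here encode the digestive contents, the membrane and the acidifying pump of the lysosome in mouse Th17 cells, the helper T cells that secrete IL-17. They were chosen by symbol from the deposited expression table: 46 genes of lysosomal hydrolases and membrane proteins from a written list, and all 23 genes whose symbol starts with Atp6v or Atp6ap, which encode subunits of the vacuolar proton pump (V-ATPase) and its accessory proteins. These 69 genes were set within the 17493 genes of the table. The lysosome is the compartment in which proteins, glycans and lipids taken up or discarded by the cell are broken down. Most of its hydrolases work best at low pH, which the V-ATPase maintains by moving protons across the membrane with energy from ATP. Products leave through transporters. In T cells lysosomes also limit cytokine and receptor levels through degradation and serve as a platform on which nutrient supply is sensed.

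All libraries came from C57BL/6 spleen: naive CD4 T cells were stimulated on anti-CD3 and anti-CD28 and cultured for 48 to 72 h with the cytokines TGF-beta (2.5 ng/mL) and IL-6 (20 ng/mL). The treated group received TMP269, a small-molecule inhibitor selective for the class IIa group of histone deacetylases, and the control group DMSO, the vehicle. Each group had 2 RNA libraries made from polyadenylated RNA, and neither the dose nor the duration of TMP269 is given in the sources used here. The labels do not say whether replicates were separate cultures or animals, so the spread behind each p-value is that between these libraries and may be technical. The chromatin libraries of the same study were not analysed here.

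Recovered reads ranged from 20007042 to 25321455 per library. Ribosomal reads (Rn45s) were 2.20% of the total in DMSO replicate 2 and 0.716% to 1.12% in the other libraries. T cell markers were abundant (Cd3e at 4097 to 4821 and Cd4 at 8263 to 9479 normalised reads, that is, reads divided by the library's size factor). B cell markers were also present: 7 of 9 tested were lower with TMP269 and 0 higher, and their summed level was 4843 and 4998 normalised reads in DMSO against 2629 and 2647 with TMP269. Of 18 macrophage and dendritic cell markers in the table, 10 were too low to test, 0 of the 8 tested were higher and 2 (Spi1 and Mpeg1, which B cells also express) were lower. Their sum was 618 and 620.0 normalised reads in DMSO and 449.6 and 428 with TMP269, and Fcgr1 was at 0 in 3 libraries and at 1.03 in TMP269 replicate 1. That fall came from Spi1 and Mpeg1: the other 16 markers summed to 123 and 100.1 in DMSO and to 154 and 188 with TMP269. In 7 of these 16 both TMP269 libraries lay above both DMSO libraries and in 0 below. Spi1 and Mpeg1 were left out because they were called lower, so the 0 and the direction of this sum follow in part from that choice. Among all 12535 tested genes, both TMP269 libraries lay above in 4090 (32.6%) and below in 4258, counts that do not include genes too low to test. The 7 markers were Itgax, Lyz2, C1qa, C1qb, C1qc, Cd14 and Marco, and all but Itgax were too low to test. Itgax (CD11c) was tested, at 28.8 and 20.5 against 41.3 and 46.5 (1.77-fold, limma adjusted p = 0.0709), and was called higher without DMSO replicate 1 (0.0350). Lyz2 was at 1.80 and 2.41 in DMSO and at 5.17 and 14.2 with TMP269, and C1qa at 0.900 and 3.62 against 4.13 and 10.4. The part of B cells or macrophages in the results below was not tested. Fewer cells of a type and less RNA per cell cannot be told apart in these bulk samples.

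The comparison of TMP269 with DMSO asks how lysosomal genes respond when class IIa histone deacetylases are inhibited. At least 1 gene rose with TMP269 in each functional class, and 0 fell. Of 63 members that could be tested, 39 were called higher (61.9%), 0 lower and 24 were not called, at a limma Benjamini-Hochberg adjusted p under 0.05 over all 12535 tested genes. Among all tested genes 12.8% were called higher and 14.7% lower. That was 1602 and 1846 genes, and with equal library totals 2145 and 1042, so the balance over all genes depended on the scaling, while 0 members were lower under either. Most rises were moderate: 18 members were called at 1.5-fold or more (28.6% of those tested, against 5.86% of all tested genes) and 5 at 2-fold or more, namely Cd68, Atp6v0d2, Ctns, Tpp1 and Cd63. Both TMP269 libraries lay above both DMSO libraries in 46 of the 63 members, against 4090 of all 12535 tested genes (32.6%).

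**Figure D1:**
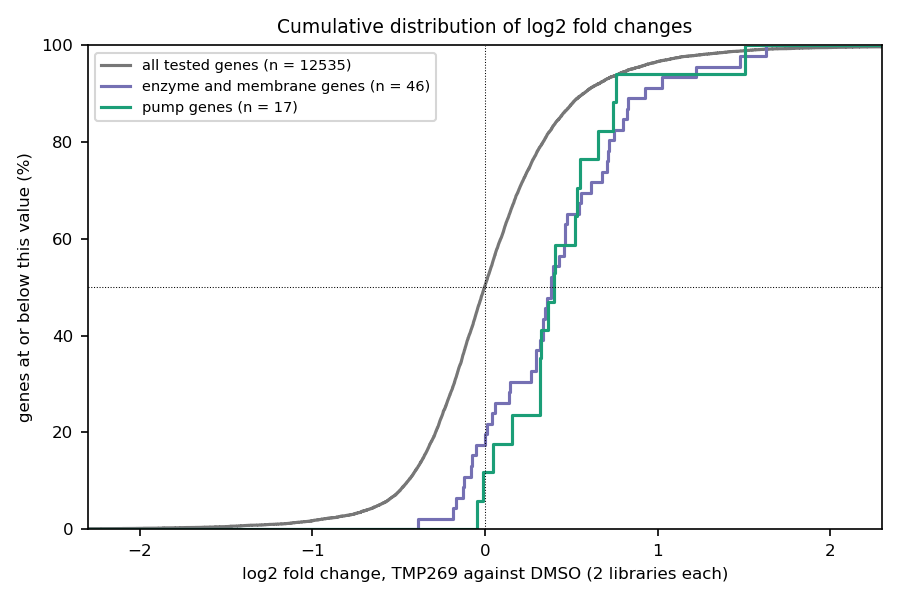
Cumulative share of genes (percent, vertical axis) at or below each log2 fold change of TMP269 against DMSO (horizontal axis), for all 12535 tested genes, 46 enzyme and membrane genes and 17 tested pump genes. The curves of the enzyme and pump genes lie to the right of that of all genes over most of the range and cross 50% at 0.38 and 0.40, where all tested genes cross at 0.00.

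Enzyme and membrane genes were set against pump genes. All 46 enzyme and membrane genes were tested, of which 27 rose (58.7%), with a median log2 fold change of 0.38. Of the 23 pump genes 17 passed the filter on low values and 12 rose (70.6%), with a median of 0.40. All tested genes had a median of 0.00. By library, and relative to the mean of the DMSO pair, the median enzyme and membrane gene stood 0.35 higher in TMP269 replicate 1 and 0.46 higher in replicate 2 on the log2 scale, and the median pump gene 0.42 and 0.45 higher. The medians of the groups thus lay 0.02 apart, and this difference ran from -0.05 to 0.09 when 1 library was left out, so neither set was higher than the other under all of these settings. The number of enzyme and membrane genes that rose was 20 without TMP269 replicate 2, where the sulfatase gene Arsb was called lower, and 25 to 27 without any other library. For pump genes it was 9 to 11.

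The proteases of the lysosome rose in 6 of 10 cases and fell in 0. Tpp1, which encodes a tripeptidyl peptidase lost in a form of neuronal ceroid lipofuscinosis, was at 1697 and 1619.8 normalised reads in DMSO and at 3844 and 3887 with TMP269. It rose 2.33-fold (log2 fold change 1.22 ± 0.08 SE, limma adjusted p = 1.27e-04), the largest change among the proteases. The aspartic protease gene Ctsd (cathepsin D) went from 3509 and 3924 to 6151 and 6787, a 1.74-fold rise (limma adjusted p = 7.45e-04). In both genes the lowest treated library stood well above the highest control library. Ctsa, the carboxypeptidase that also stabilises beta-galactosidase and neuraminidase in a complex, was at 2624 and 2510.0 in DMSO and at 4095 and 4101 with TMP269 (1.60-fold, limma adjusted p = 7.19e-04). The cysteine protease gene Ctsl had 255 and 338 normalised reads in DMSO and 485 and 560.4 with TMP269, and rose 1.77-fold (limma adjusted p = 0.00574). Lgmn, the asparaginyl endopeptidase that processes other cathepsins, rose 1.39-fold from 722 and 786 to 1014 and 1083 (limma adjusted p = 0.00732). These 5 calls held under all 13 alternatives.

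Ctsb rose less. It was at 4592 and 5037 in DMSO and at 6011 and 6143 with TMP269 (1.26-fold, limma adjusted p = 0.0160), and the adjusted p was 0.0563 when DMSO replicate 1 was left out, 0.0533 without TMP269 replicate 1 and 0.0726 without TMP269 replicate 2. The other members of the class were not called. Ctss, a cysteine protease known from antigen processing, was at 2011 and 2570.3 in DMSO and 2567 and 3210.2 with TMP269, so that the groups overlapped (limma adjusted p = 0.0971). It passed without DMSO replicate 2 (0.0227), without TMP269 replicate 1 (0.00556) and with equal library totals (0.0394). For Ctsc, Ctsh and Ctsz, further cysteine proteases, no change was called, and they had log2 fold changes of 0.01, -0.08 and 0.06 (limma adjusted p of 0.933, 0.720 and 0.603).

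**Figure D2:**
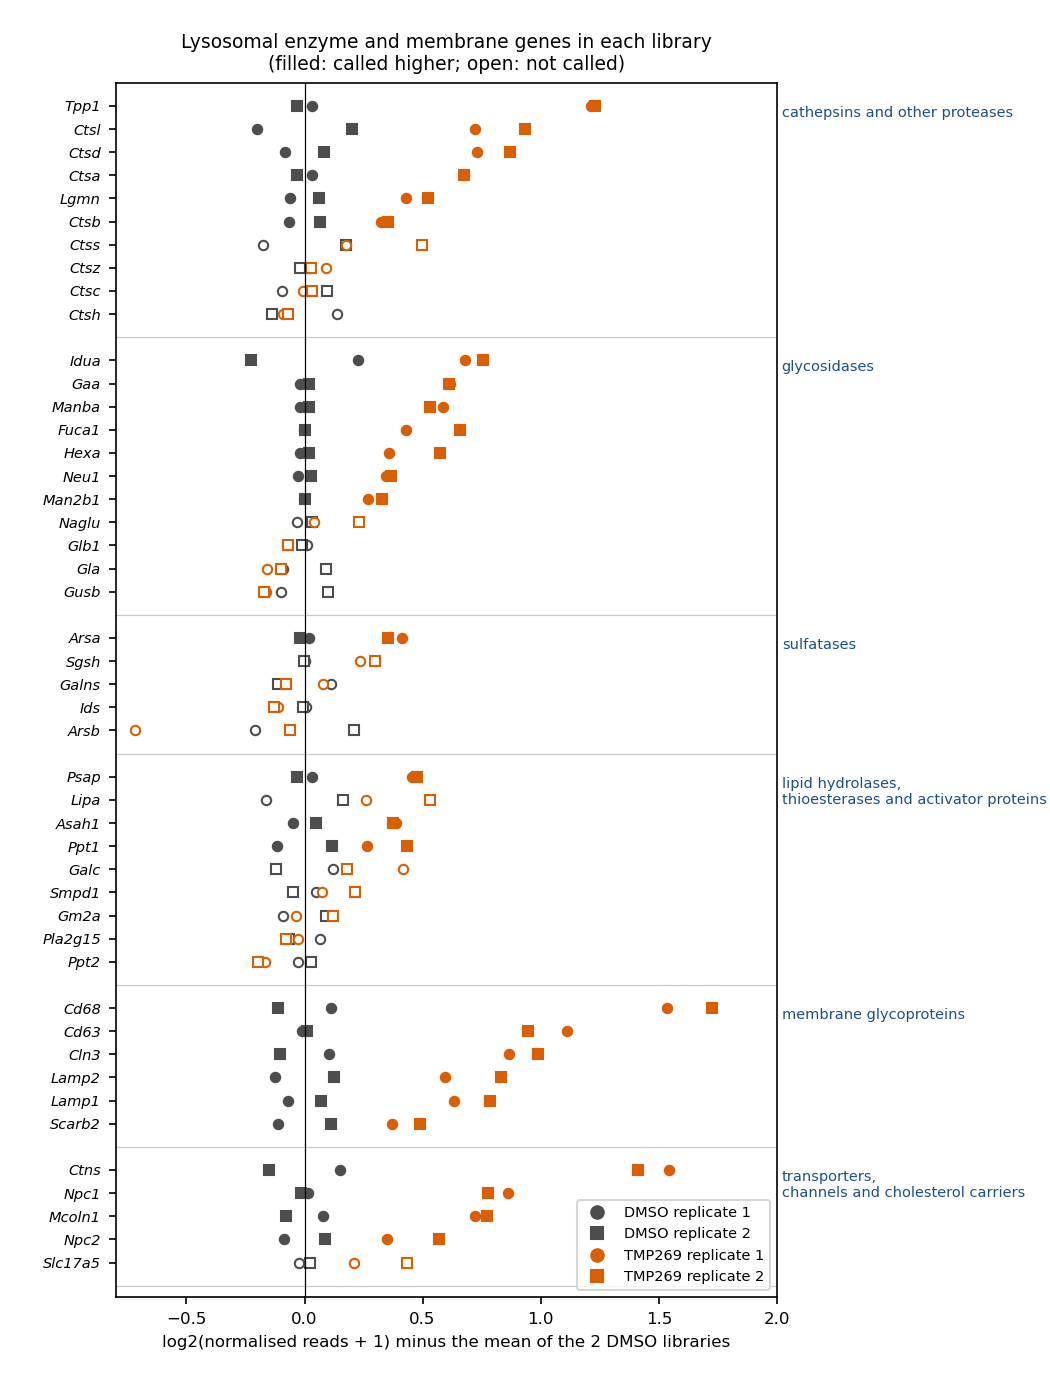
Each of the 46 enzyme and membrane genes in each library, as log2(normalised reads + 1) minus the mean of the 2 DMSO libraries (horizontal axis), ordered by change within its class, with filled symbols for genes called higher and open symbols for genes not called. Membrane glycoproteins are all filled and stand to the right, whereas the sulfatases straddle 0 with 1 gene called.

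Among glycosidases, which trim sugars from glycoproteins, glycolipids and glycosaminoglycans, 7 of 11 rose and 0 fell. Gaa, the acid alpha-glucosidase that breaks down glycogen, was at 1494 and 1532 normalised reads in DMSO and at 2315 and 2309 with TMP269 (1.53-fold, log2 fold change 0.61 ± 0.08 SE, limma adjusted p = 0.00114). Idua, the iduronidase of heparan and dermatan sulfate breakdown, had 415 and 303 in DMSO and 568 and 599 with TMP269 (1.65-fold, limma adjusted p = 0.00949). Its control libraries differed more from each other than its treated ones, yet the groups were separate. Manba, which removes beta-linked mannose, went from 438 and 451 to 668 and 643 (1.47-fold, limma adjusted p = 0.00493). Fuca1, the alpha-fucosidase gene, went from 1193 and 1196 to 1611 and 1888 (1.46-fold, limma adjusted p = 0.00451). Hexa, the alpha subunit of beta-hexosaminidase, was at 851 and 872 and then at 1103 and 1283 (1.38-fold, limma adjusted p = 0.00985).

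The remaining rises of this class were those of the sialidase gene Neu1 (1.28-fold) and the alpha-mannosidase gene Man2b1 (1.23-fold). Without TMP269 replicate 2 only 4 glycosidases were called, since Hexa (limma adjusted p = 0.0596), Neu1 (0.0579) and Man2b1 (0.128) no longer passed. Man2b1 also did not pass when DMSO replicate 2 (0.0606) or TMP269 replicate 1 (0.0607) was left out. Several other glycosidases gave values in the other direction without passing. Gusb, the beta-glucuronidase gene, was at 1701 and 1949 in DMSO and at 1625 and 1617 with TMP269 (log2 fold change -0.17 ± 0.09 SE, limma adjusted p = 0.193). The beta-galactosidase gene Glb1 was at 1183 and 1164 against 1114 and 1118, and the alpha-galactosidase gene Gla at 816 and 924 against 778 and 810.2. In these genes both treated libraries lay just below both controls (limma adjusted p = 0.539 for Glb1 and 0.357 for Gla), and the sign of Glb1 turned with equal library totals. Naglu, an N-acetylglucosaminidase gene, had a log2 fold change of 0.14 (limma adjusted p = 0.394).

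Sulfatases, which remove sulfate groups from glycans and lipids, had the lowest median change of the classes. Of 5 tested, 1 rose, 0 fell and the median log2 fold change was 0.00. Single genes went in both directions, from -0.39 (Arsb) to 0.38 (Arsa), and the median ran from -0.11 to 0.11 when 1 library was left out. Arsa, which desulfates the myelin lipid sulfatide, rose 1.30-fold, from 484 and 470.4 normalised reads to 635 and 609.8 (limma adjusted p = 0.0223). It did not pass when DMSO replicate 2 (0.0887), TMP269 replicate 1 (0.122) or TMP269 replicate 2 (0.0570) was left out. Sgsh, a sulfamidase of heparan sulfate breakdown, was at 320.3 and 319.6 against 377 and 393 without passing (limma adjusted p = 0.115, and 0.0494 with equal library totals). Arsb was at 357 and 478 in DMSO and at 251 and 396 with TMP269, with replicate 1 the lower library in each group (limma adjusted p = 0.210). Without TMP269 replicate 2 it was called lower (0.00403). Ids and Galns had log2 fold changes of -0.12 and 0.00 (limma adjusted p of 0.331 and 0.999).

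Genes of lysosomal lipid breakdown rose in 3 of 9 cases and fell in 0. Psap encodes the precursor of the saposins, small proteins that present sphingolipids to their hydrolases. It had 9477 and 9071 normalised reads in DMSO and 12698 and 12917 with TMP269, a 1.38-fold rise (log2 fold change 0.47 ± 0.08 SE, limma adjusted p = 0.00456). The acid ceramidase gene Asah1 rose 1.30-fold (limma adjusted p = 0.0129, a call lost when TMP269 replicate 1 was left out) and Ppt1, a thioesterase that removes palmitate from proteins, 1.27-fold (0.0340). Ppt1 did not pass when DMSO replicate 1 (0.131) or TMP269 replicate 2 (0.149) was left out. Lipa, the acid lipase of cholesteryl esters, was at 633 and 792 against 849 and 1024, separate groups that did not pass (limma adjusted p = 0.0561). It passed in edgeR (0.0482), in DESeq2 (0.0430), with equal library totals (0.0251), without DMSO replicate 2 (0.0214) and without TMP269 replicate 1 (0.00846). Smpd1, Galc, Pla2g15, Ppt2 and Gm2a were not called, with log2 fold changes from -0.18 (Ppt2) to 0.30 (Galc).

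The membrane glycoproteins rose in all 6 of 6 cases, with a median log2 fold change of 0.82, and the count stayed at 6 without any 1 of the 4 libraries. Cd68, a heavily glycosylated LAMP-family protein best known from macrophages, had 97.2 and 83.2 normalised reads in DMSO and 263 and 299 with TMP269. It rose 3.09-fold (log2 fold change 1.63 ± 0.17 SE, limma adjusted p = 4.85e-04), the largest change among the members. The macrophage markers left after Spi1 and Mpeg1, both called lower, were set aside summed to 123 and 100.1 in DMSO and to 154 and 188 with TMP269. The part of such cells in the value of Cd68 was not tested. Cd63, a tetraspanin of late endosomes and secretory lysosomes, went from 91.8 and 92.9 to 201 and 179 (2.04-fold, limma adjusted p = 0.00328). Cln3, a multipass membrane protein mutated in juvenile neuronal ceroid lipofuscinosis, rose 1.90-fold, from 564 and 487 to 956 and 1041 (limma adjusted p = 8.79e-04).

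Lamp1 and Lamp2 encode the main structural glycoproteins of the lysosomal membrane, and their changes were close in size. Lamp1 was at 3272 and 3598 normalised reads in DMSO and at 5319 and 5916 with TMP269 (1.63-fold, limma adjusted p = 0.00114). Lamp2 was at 2005 and 2387 and then at 3302 and 3891 (1.64-fold, limma adjusted p = 0.00274). In each gene the treated libraries lay well above the controls. Scarb2, known as LIMP-2, carries glucocerebrosidase to the lysosome. It rose less, 1.35-fold, from 1159.8 and 1352 to 1619 and 1758 (limma adjusted p = 0.0134).

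Transporters, the calcium channel and the cholesterol carriers rose in 4 of 5 cases, with a median log2 fold change of 0.75. Ctns, the exporter of cystine, had 191 and 154 normalised reads in DMSO and 502 and 459 with TMP269 (2.79-fold, log2 fold change 1.48 ± 0.14 SE, limma adjusted p = 4.19e-04). Npc1, the membrane protein that passes cholesterol out of the lysosome, went from 1607 and 1576 to 2895 and 2729.7 (1.77-fold, limma adjusted p = 3.73e-04). Its soluble partner Npc2, which hands cholesterol to it, went from 9929 and 11176 to 13425 and 15629.5 (1.38-fold, limma adjusted p = 0.0133, which became 0.0854 when TMP269 replicate 2 was left out). Mcoln1, the calcium channel TRPML1, rose 1.68-fold, from 584 and 525 to 915 and 947 (limma adjusted p = 0.00144). Slc17a5, the sialic acid exporter gene, was at 164 and 169 against 192 and 225, separate groups that did not pass (limma adjusted p = 0.147).

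The V-ATPase has a cytosolic V1 domain, which splits ATP, and a membrane V0 domain, through which protons pass. In V1, 6 of 9 tested genes rose and 0 fell, with a median log2 fold change of 0.32. Atp6v1a, the catalytic subunit, was at 3682 and 3657 normalised reads in DMSO and at 4573 and 4605 with TMP269 (1.25-fold, limma adjusted p = 0.0131). Atp6v1b2, its partner in the ATP-splitting ring, went from 2255 and 2225 to 2991 and 2955 (1.33-fold, limma adjusted p = 0.00513). The rotor gene Atp6v1d rose most in this domain, 1.45-fold, from 1683 and 1696 to 2317 and 2582 (limma adjusted p = 0.00291). In these 3 genes the replicates lay closer to each other than to the other group. The stalk genes Atp6v1c1, Atp6v1g1 and Atp6v1e1 rose 1.32-fold, 1.29-fold and 1.25-fold (limma adjusted p = 0.00888, 0.0350 and 0.0339).

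Without TMP269 replicate 2 the number called in V1 was 3, since Atp6v1a (limma adjusted p = 0.0678), Atp6v1e1 (0.207) and Atp6v1g1 (0.187) no longer passed. It was 4 without DMSO replicate 1, where Atp6v1e1 (0.115) and Atp6v1g1 (0.122) did not pass, and 5 without TMP269 replicate 1, where Atp6v1a (0.0651) did not. Atp6v1g1 also did not pass without the filter on low values (0.0509). Atp6v1h and Atp6v1f, whose products regulate and join the rotating parts, were not called. Atp6v1h was at 1424 and 1608 against 1439.8 and 1495, with a 95% interval of the log2 fold change from -0.25 to 0.16. Atp6v1f was at 1736 and 1780.2 against 1736 and 1901, with an interval from -0.14 to 0.24. Both intervals end below the change of Atp6v1d (0.53), though the difference between genes was not tested. Atp6v1g2, a form known from neurons, was at 80.1 and 36.2 against 79.6 and 57.0, overlapping groups. Atp6v1b1, Atp6v1c2, Atp6v1e2 and Atp6v1g3, forms known from kidney, testis and other tissues, had at most 1.80 normalised reads in any library and were not tested.

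**Figure D3:**
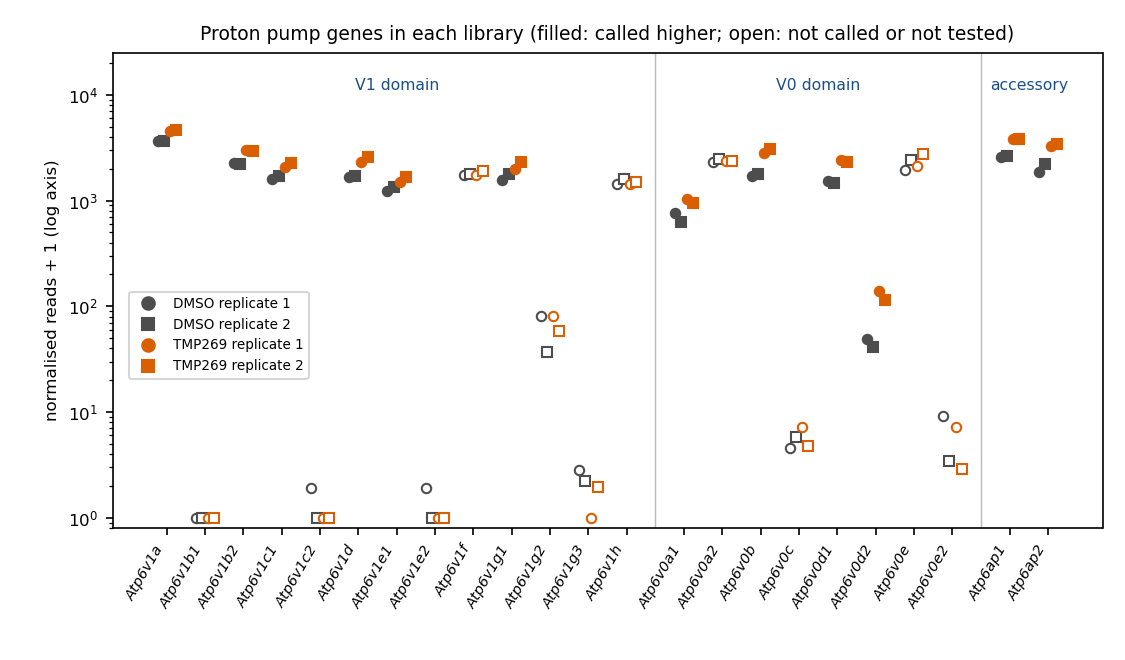
Normalised reads plus 1 (vertical log axis) of the 23 pump genes in each library, grouped by V1 domain, V0 domain and accessory proteins, with filled symbols for genes called higher and open symbols for genes not called or not tested. Values are not divided by gene length, so levels of different genes are not comparable. Treated libraries lie above the controls in the 12 filled genes, and 6 genes lie under 10 normalised reads in all 4 libraries.

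In V0, 4 of 6 tested genes rose and 0 fell, with a median log2 fold change of 0.59. Atp6v0b, a subunit of the proton-carrying ring, went from 1695 and 1780.2 normalised reads to 2822 and 3060.2 (1.69-fold, log2 fold change 0.76 ± 0.08 SE, limma adjusted p = 6.25e-04). Atp6v0d1, which links the ring to the rotor, went from 1529.6 and 1479.9 to 2419.7 and 2328 (1.58-fold, limma adjusted p = 9.50e-04). Its paralog Atp6v0d2, known from osteoclasts and macrophages, had 47.7 and 39.8 in DMSO and 139.5 and 113 with TMP269 (2.84-fold, limma adjusted p = 0.00214). Both d genes kept their calls under all 13 alternatives, and the part of macrophages in the value of Atp6v0d2 was not tested.

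The large a subunit, which lines the proton path, has several forms that direct the pump to different membranes. Atp6v0a1 rose 1.43-fold, from 755 and 625 normalised reads to 1026 and 944 (limma adjusted p = 0.0109, which became 0.0521 when DMSO replicate 2 was left out). The form a3 is encoded by Tcirg1, whose symbol the rule did not take. It rose 1.55-fold, from 1444 and 1204 to 2174 and 1911 (limma adjusted p = 0.00428). Atp6v0a2, a form of the Golgi and endosomes, was at 2304 and 2448 against 2344 and 2369.7 and was not called, with a 95% interval of the log2 fold change from -0.19 to 0.16. The difference between forms was not tested. Atp6v0e, a small membrane subunit, was at 1963 and 2409.9 against 2118 and 2781, overlapping groups (limma adjusted p = 0.425). Atp6v0c, which encodes the main ring subunit, was listed at 3.60 and 4.82 in DMSO and at 6.20 and 3.80 with TMP269, and Atp6v0e2 at no more than 8.10. Neither was tested. How reads that match several places were counted is not given in the sources used here, so the level of Atp6v0c is uncertain.

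The accessory genes both rose. Atp6ap1 (Ac45), which helps assemble V0, was at 2608 and 2658 normalised reads in DMSO and at 3862 and 3859.9 with TMP269 (1.47-fold, log2 fold change 0.55 ± 0.07 SE, limma adjusted p = 0.00150). Atp6ap2, the prorenin receptor, was at 1855 and 2205 and then at 3313 and 3466 (1.67-fold, limma adjusted p = 0.00131). Both kept their calls under all 13 alternatives.

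Other genes of the pathway were counted by list, beside the 12.8% higher and 14.7% lower of all tested genes. Of 23 further hydrolase genes tested, 10 rose (43.5%) and 0 fell, with a median log2 fold change of 0.31. Dpp7, a dipeptidyl peptidase gene, rose 2.49-fold, from 188 and 183 to 484 and 445 normalised reads (limma adjusted p = 3.60e-04). Aga, which cleaves the link between sugar and asparagine, rose 1.84-fold (limma adjusted p = 0.00104). Of 29 further membrane genes 11 rose (37.9%) and 0 fell, with a median of 0.18. Here the lysosomal chloride-proton exchanger gene Clcn7 rose 1.84-fold (limma adjusted p = 0.00104) and Pqlc2, a cationic amino acid exporter gene, 1.98-fold (0.00131). The count was 7 without TMP269 replicate 2.

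Genes that deliver enzymes or position lysosomes were called in both directions. Of 23 sorting genes 3 rose (13.04%, close to the share of all tested genes) and 1 fell (4.35%), with a median log2 fold change of 0.08. Grn, the precursor of the granulins, rose 1.76-fold (limma adjusted p = 9.36e-04) and the adaptor gene Ap3d1 1.35-fold (0.00865), while the adaptor gene Ap1s1 fell to 0.747-fold (0.00822). With equal library totals 7 sorting genes rose. Of 24 fusion and positioning genes 5 rose (20.8%) and 3 fell (12.5%), with a median of 0.13. Arl8a, a GTPase that moves lysosomes outward, rose 1.60-fold (limma adjusted p = 0.00127) and Bloc1s2 1.43-fold (0.00356), while the Ragulator gene Lamtor2 fell to 0.779-fold (0.0285) and the SNARE gene Stx7 to 0.833-fold (0.0372). The counts were 8 and 0 with equal library totals and 3 and 0 without DMSO replicate 2. Lower counts were 0 or 1 without any other library.

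Of 12 genes of pump assembly and interaction, 5 rose (41.7%) and 1 fell (8.33%), with a median log2 fold change of 0.19. Beside Tcirg1, Wdr7, which with the Dmxl proteins helps to reassemble the pump, rose 1.41-fold (limma adjusted p = 0.00482). Vma21, an assembly chaperone gene of the endoplasmic reticulum, fell to 0.799-fold (0.0348). The number that rose was 2 when TMP269 replicate 2 was left out and 3 when DMSO replicate 1 was. The number that fell was 2 without DMSO replicate 1, and 0 fell without DMSO replicate 2, without TMP269 replicate 1 or with equal library totals. Of 6 tested protease inhibitor genes, from the cystatin and serpin families, 2 rose (33.3%) and 0 fell. Serpinb6b rose 2.19-fold, from 316 and 333 to 695 and 730.4 normalised reads (limma adjusted p = 3.49e-04), and the cystatin gene Cstb 1.47-fold (0.00302). The median of the inhibitor list was 0.29, and -0.02 without DMSO replicate 1. Without TMP269 replicate 2, 1 inhibitor gene fell.

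Many lysosomal promoters carry an E-box, the sequence CACGTG, at the centre of the CLEAR element bound by TFEB and its relatives. Promoter windows of 300 bases, from 250 before to 50 after each annotated start, were taken from RefSeq (GRCm38.p6) and searched on both strands for CACGTG and for the longer forms TCACGTGA and GTCACGTG, each of which contains it. Of the 69 members 58 had a window, and 17 of these held CACGTG. The share was 37.5% of 32 matched members called higher and 25.0% of 20 that were tested and not called. It was 31.7% of 41 enzyme and membrane genes and 23.5% of 17 pump genes, against 11.9% of 9427 matched tested genes. Among all matched tested genes it was 14.5% of 1205 called higher and 13.2% of 1426 called lower. Over all 27025 genes with a promoter window the share was 8.09%. TCACGTGA was held by 18.8% and GTCACGTG by 28.1% of matched members called higher, and by 2 and 4 of the 20 tested and not called. The shares were 4.23% and 7.63% of all matched genes called higher and 1.54% and 3.37% of those called lower. They were 2.20% and 4.79% of matched tested genes and 1.125% and 2.55% of all genes with a window. The difference between members called and not called was not tested. A match is a description of the sequence and not a measured binding site.

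Lamp1 held 4 matches in its window, the most of any member, beginning 61, 45, 28 and 15 bases before the start. Its window, chr8:13158911-13159210 on the plus strand of GRCm38.p6, is printed with the matches in capitals.
Lamp1: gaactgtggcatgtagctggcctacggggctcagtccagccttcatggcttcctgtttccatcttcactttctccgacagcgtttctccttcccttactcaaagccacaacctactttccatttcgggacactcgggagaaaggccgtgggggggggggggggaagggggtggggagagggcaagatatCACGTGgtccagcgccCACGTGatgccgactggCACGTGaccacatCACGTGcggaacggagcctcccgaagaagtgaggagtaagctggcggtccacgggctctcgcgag

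Windows of 20 bases around a match show the flanks in some members that rose and some that did not pass. These windows are a selection, since 12 members called higher and 5 not called held CACGTG. Left out were Ctsl, with neither longer form, Lgmn, Arsa and Sgsh, with GTCACGTG only, and Atp6v0e, with TCACGTGA only. Other matches of Ctsa, Ctsd, Cln3, Mcoln1, Atp6v0b and Gla were also left out. The windows are given on the strand of the gene with CACGTG in capitals, the first 8 from members called higher and the last 3 from members not called.
Ctsa, chr2:164833754-164833773, plus strand: aaactgtCACGTGatgcaga
Ctsd, chr7:142387913-142387932, minus strand: cgcgtctCACGTGacccgtt
Cln3, chr7:126583345-126583364, minus strand: gtactgtCACGTGaccccca
Gaa, chr11:119267816-119267835, plus strand: gtgcgatCACGTGtttgact
Mcoln1, chr8:3500467-3500486, plus strand: ccccgctCACGTGaccgcgg
Atp6v0b, chr4:117887353-117887372, minus strand: cgggggtCACGTGgggtcgg
Atp6v0d1, chr8:105566055-105566074, minus strand: ctgcggtCACGTGagacgcg
Atp6v1a, chr16:44139378-44139397, minus strand: tttaaatCACGTGataggct
Gla, chrX:134601187-134601206, minus strand: tctcggtCACGTGagcaact
Glb1, chr9:114401023-114401042, plus strand: tctgagtCACGTGgcctaca
Naglu, chr11:101070014-101070033, plus strand: ttcaggtCACGTGgcccgag
The windows of Ctsa, Ctsd, Cln3, Mcoln1 and Atp6v0d1 hold both longer forms, and so does that of Gla, which was not called. The matches in Ctsd, Cln3, Mcoln1 and Gla began 98, 121, 45 and 194 bases before the start, and that of Atp6v0d1 began 3 bases before it. The Gaa window holds neither longer form.

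**Figure D4:**
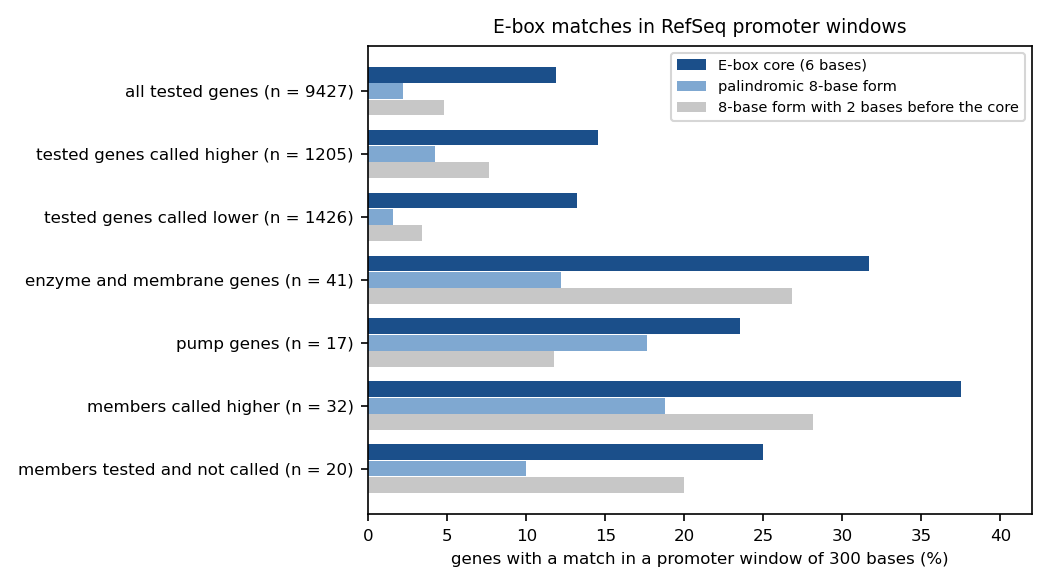
Share of genes (percent, horizontal axis) with a match to the E-box core or to either 8-base form in a promoter window of 300 bases, for tested genes, for genes called higher or lower, and for the members by class and by call, with n the number of genes with a window. Members called higher have the longest bar for the core, 37.5%, and all tested genes the shortest, 11.9%.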

How the data were processed

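RNA sequencing of 2 DMSO and 2 TMP269 libraries was analysed. The deposited table holds a normalised signal, which the values show to be read counts scaled by 1 size factor per library: multiplication by that factor gave whole reads for 100% of values, within 1e-06. Per the submitters' processing notes the tools included TopHat2 2.1.0, HTSeq and DESeq2, with build mm9; their roles, the annotation and the strand setting are likewise not given in these sources, so overlapping genes and near-identical copies are uncertain. From these values log2(value + 1) was tested with limma 3.58.1 (R 4.3.3) with a mean-variance trend, for the 12535 genes that reached 10 in 2 or more libraries; log2 fold changes are on that scale, which understates changes of low genes. Calls used a two-sided Benjamini-Hochberg adjusted p under 0.05. An exact test of 2 against 2 libraries cannot go below 0.333, so p-values rest on the spread limma shares across genes. Alternatives included edgeR 4.0.16 and DESeq2 1.42.0 on recovered reads. The members and lists were chosen with earlier results of these data known. By rule, values in every library are given for 34 members: those called with a log2 fold change of at least 0.4, the most significant of each class, and 9 listed genes. Those of 12 further members, not called, were added after their values were seen. In pathway lists the 2 smallest p-values in each direction are named. Matches to promoters used RefSeq symbols.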

Additional observations from a re-analysis of the deposited data

How the results depend on the processing

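Of 39 members called higher, 39 stayed called with equal library totals, TMM factors in limma, edgeR and DESeq2, and 27 without any 1 library and under all 13 alternatives. Over all tested genes, calls lower numbered 1846, and 1042 with equal library totals, where the median tested gene stood at 0.10 instead of 0.00 (log2); calls higher were then 2145 against 1602, so the share of higher calls moved, while the members' medians were 0.49 (enzyme and membrane) and 0.50 (pump). Leaving out 1 library, with the lone sample of its group assumed to vary like the others, gave 1040 to 1789 genes higher and 966 to 1823 lower, 20 to 27 enzyme and membrane genes higher and 0 to 1 lower, and enzyme and membrane medians of 0.33 to 0.46. For pump genes it gave 9 to 11 higher and medians of 0.40 to 0.45. The pump minus enzyme difference in medians, 0.02, was -0.061 without the filter on low values, where 22 pump genes were tested and the pump median was 0.32, and ran from -0.052 (without DMSO replicate 2) to 0.088 (without DMSO replicate 1), being -0.01 without TMP269 replicate 1. With the replicate number as a block, 3008 genes were called higher and 3352 lower, 32 and 2 of them enzyme and membrane genes (Gusb and Arsb lower) and 13 pump genes higher. The differences between replicates 1 and 2 in DMSO and TMP269 correlated at r = 0.37 over tested genes, but 2 pairs and a shared number do not establish pairing. In reads, Atp6v0c, Atp6v0e2 and 4 further pump genes were too low to test.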

Other observations

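The factors that bind the CLEAR element were looked up after the values of the members had been seen. Tfeb was at 554 and 519 normalised reads in DMSO and at 384 and 399 with TMP269 (0.731-fold, limma adjusted p = 0.0153). Tfe3 was at 1244 and 1254 against 1474 and 1522 (1.20-fold, limma adjusted p = 0.0395), Mitf at 31.5 and 26.5 against 38.2 and 30.4 (limma adjusted p = 0.590), and Tfec had at most 1.80 normalised reads in any library. Flcn, which encodes folliculin, a negative regulator of Tfe3 that lysosomes recruit, was at 1046 and 973 against 2307 and 2162 (2.21-fold, limma adjusted p = 1.47e-04). The activity of these factors depends on where the protein lies in the cell, which RNA levels do not measure.

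Calls were also counted by abundance. Of 37 members with a mean of at least 1000 normalised reads, 27 were called higher, and of 26 with a lower mean, 12. Among all tested genes the shares were 13.9% and 12.02%.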
